A study of Mus musculus with 24 samples.

Results

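SR proteins, the CLK kinases that phosphorylate them and the hnRNPs were followed in mouse liver as 37 genes of the 24015 gene symbols in the count table. They were taken by a pattern of gene symbols, and earlier results of these data were known when the families were chosen. The SR and CLK group holds 17 genes: every Srsf gene with a number, Clk1 to Clk4, Tra2a and Tra2b. The hnRNP group holds the 20 symbols that begin with Hnrnp. The livers came from female B6C3F1 mice, a hybrid strain, bought at 5 to 6 weeks of age and then acclimatized. Furan, a heterocyclic compound toxic to the rodent liver, was given by gavage to 4 mice on 21 days, dissolved in corn oil, with a daily dose of 8 mg/kg, and 4 control mice received the oil alone. Livers were taken 4 hours after the last gavage and cut in 3. The first piece was snap frozen, while the others went into paraffin after 18 hours (FFPE 18 h) or 3 weeks (FFPE 3 weeks) of formalin. This gave 6 groups of 4 libraries, 24 in all, of total RNA freed of ribosomal RNA. The RNA integrity number was above 8.9 for frozen and 1.3 to 2.4 for fixed pieces, the extraction kits differed, and the 3-week pieces used 2 sections in place of 1. Effects of fixation, kit, input and piece of liver therefore cannot be told apart.

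SR proteins are RNA-binding proteins with a tail rich in arginine and serine; they bind exons in new transcripts and recruit the splicing machinery to them. CLK kinases phosphorylate that tail in the nucleus, which releases SR proteins from nuclear speckles. The hnRNPs coat nascent transcripts and often oppose exon inclusion, and several also act in RNA export, stability and translation. Many genes of both groups limit their own protein by splicing in a poison exon that sends the transcript to nonsense-mediated decay. Counts per gene, as used here, do not separate such transcripts from the coding ones. In liver, Srsf3 is known to be needed for mature hepatocyte function.

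The promoters of Srsf5, Hnrnpab and Hnrnpc, which passed the furan test in FFPE 18 h tissue, are shown here. They allow a look at the sequence before genes that moved in opposite directions. Hnrnpul2 also passed there but had no matched window. RefSeq windows (GRCm38.p6) were matched for 34 of the 37 members, in 46 windows; Clk1, Hnrnpll and Hnrnpul2 were not matched. Each line gives the 250 bases before the transcript start, 5′ to 3′ in the direction of the gene, with matches to CCAAT or CCGGAAGT on either strand in capitals. Matches to these motifs do not overlap each other in these windows, and the bases after the Hnrnpab start were not found in the GENCODE transcripts used here for that gene.
Srsf5 (chr12:80945249-80945498, plus strand): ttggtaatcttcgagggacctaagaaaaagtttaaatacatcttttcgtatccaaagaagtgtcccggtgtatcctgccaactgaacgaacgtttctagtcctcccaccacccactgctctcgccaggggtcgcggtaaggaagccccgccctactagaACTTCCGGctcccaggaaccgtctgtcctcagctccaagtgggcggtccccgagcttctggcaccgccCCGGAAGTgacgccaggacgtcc
Hnrnpab (chr11:51606882-51607131, minus strand): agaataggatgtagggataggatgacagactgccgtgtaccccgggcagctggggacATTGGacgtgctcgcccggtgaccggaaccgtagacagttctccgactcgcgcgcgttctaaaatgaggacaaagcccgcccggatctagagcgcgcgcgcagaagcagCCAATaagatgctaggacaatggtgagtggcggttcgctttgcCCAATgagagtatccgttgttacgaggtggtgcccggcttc
Hnrnpc (chr14:52104022-52104271, minus strand): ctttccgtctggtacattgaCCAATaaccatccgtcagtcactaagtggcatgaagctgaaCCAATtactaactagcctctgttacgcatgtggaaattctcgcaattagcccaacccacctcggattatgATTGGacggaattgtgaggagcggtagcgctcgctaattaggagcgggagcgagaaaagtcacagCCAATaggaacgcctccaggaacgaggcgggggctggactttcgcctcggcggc
The Srsf5 window held CCGGAAGT at both of its capital runs, first as the reverse complement, and no CCAAT. The Hnrnpab window held CCAAT at 3 places and the Hnrnpc window at 4. CCAAT was found in 17 of 27 hnRNP windows and 5 of 19 SR and CLK windows, against 33.85% of all 32851 windows in the table. CCGGAAGT was found in 4 of 19 SR and CLK windows and 2 of 27 hnRNP windows, against 2.88% of all windows. Both strands were also searched for TGACGTCA, CACGTG, the NRF1 palindrome and GAANNTTC, which were found in 2, 1, 1 and 2 of 19 SR and CLK windows and in 0, 3, 0 and 3 of 27 hnRNP windows, against 1.55%, 6.02%, 0.78% and 6.69% of all windows. Windows of 1 gene can overlap, as those of Srsf4 with CCGGAAGT do, and a match describes letters only. CCGGAAGT was also found before Srsf4, Srsf11, Hnrnpd and Hnrnpf, and CCAAT before Hnrnpl and Hnrnpr, among others. None of these named genes passed the furan test in any tissue. Srsf10 and Tra2b had positive furan differences in every tissue but did not pass, and their windows are not shown. CCAAT was found before Srsf10, and neither motif before Tra2b.

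In control frozen liver the members spanned a wide range of levels. Per kilobase of transcript, the highest was Hnrnpa2b1, a reader of exon and export signals, at 105 ± 23.7 CPM per kilobase (SD, n = 4), where CPM are counts scaled to a common library size. Hnrnpab, a CArG-box and RNA-binding protein, followed at 85.6 ± 19.5, Srsf5 at 72.8 ± 10.4 and Clk1 at 60.6 ± 15.3 CPM per kilobase. Each of these neighbours differed from the next by less than the larger of their SDs. The lowest levels per kilobase among the detected members were those of Hnrnph3 (1.30 ± 0.209), Srsf4 (2.14 ± 0.643) and Hnrnpa1 (2.22 ± 0.965). Hnrnpa1 shares 54.15% of its 50-base windows with 20 other annotated genes, and Hnrnpa3 shares 90.97% with 46. How reads that fit several copies were counted is not given in the sources used here, so the levels of both are uncertain. Srsf12 had 12 counts in all 24 libraries together, in 3 of them, and did not pass the filter on low counts. The other 36 members passed it in every comparison, and all counts below are out of 16 SR and CLK genes and 20 hnRNPs.

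Library depth was 37978435 to 49326373 counts in frozen, 22889146 to 28054631 in FFPE 18 h and 5560002 to 11019297 in FFPE 3 weeks pieces. The hepatocyte markers set for the check (Alb, Apoa1, Ttr, Serpina1a, Cps1 and Tat) were present in every group, as the label liver requires. All CPM are scaled with TMM over the 24 libraries, and a gene is called when its adjusted p in edgeR's quasi-likelihood test, taken over all genes tested, is below 0.05. The frozen library of control animal 3 stood apart. In it 17 of 20 hnRNPs lay below the mean of the other 3 frozen controls, with a median deviation of -0.36 on the log2 scale, and 10 of 16 SR and CLK genes did, with a median of -0.28. The median over 14901 genes in that library was -0.03, but their spread was the widest of the frozen libraries. The SD of their deviations was 0.80, beside 0.36 to 0.49 in the others, so the library stood apart beyond the members. Over these genes its deviations correlated at 0.03 with the 18-hour piece of the same liver, and more closely with that of another control. The pieces of the same liver fixed for 18 hours (10 of 20 hnRNPs below, median 0.00) and for 3 weeks (7 of 20, median 0.09) did not show this. Frozen results are therefore given with and without that library where it matters.

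**Figure D1:**
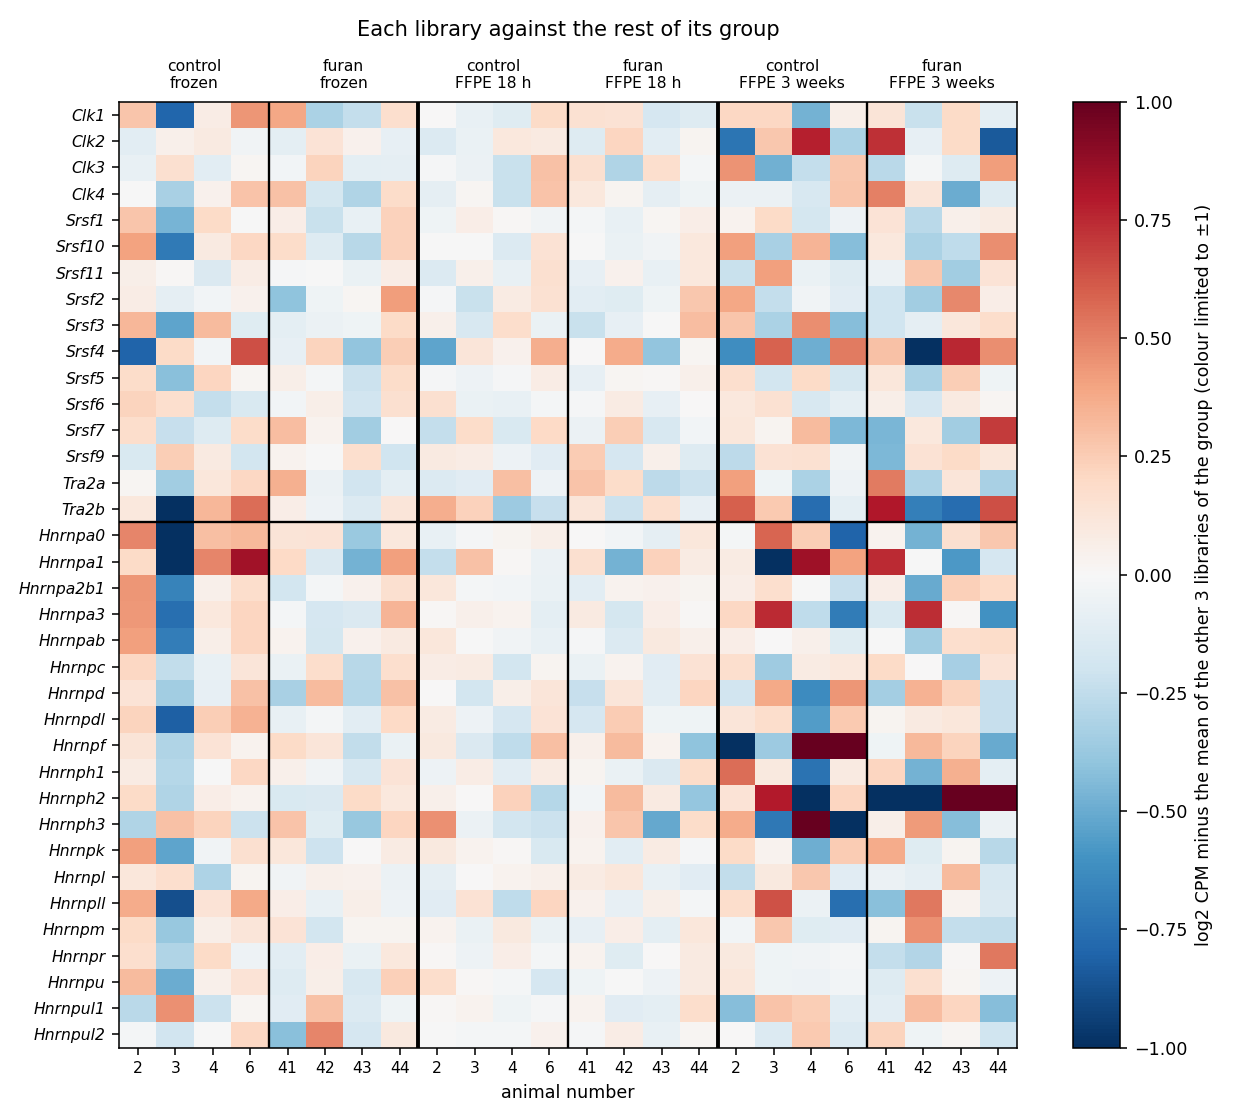
Heat map of 36 members (rows, SR and CLK above the line, hnRNP below) in 24 libraries (columns, by animal number within each group); colour is log2 CPM minus the mean of the other 3 libraries of the group, limited to 1 either way. The frozen column of control animal 3 is blue for 17 of 20 hnRNPs, and the FFPE 3 weeks columns on the right hold the strongest colours for genes of low counts such as Hnrnpf, Hnrnph2 and Hnrnph3.

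Srsf5 was the member that furan lowered, and it was lower in furan than in control libraries in all 3 kinds of tissue. The Srsf5 protein is an SR splicing activator whose gene is known to respond to insulin and growth signals. In frozen liver the controls held 121, 88.6, 123 and 112 CPM (animals 2, 3, 4 and 6) and the furan mice 81.3, 78.1, 70.6 and 86.9 CPM (animals 41 to 44). The lowest control, animal 3, lay just above the highest furan mouse, so the groups did not overlap. In FFPE 18 h tissue the controls held 82.6, 80.9, 82.6 and 86.6 CPM and the furan mice 53.5, 56.3, 56.2 and 57.4 CPM. In FFPE 3 weeks tissue the values were 71.4, 59.5, 72.2 and 59.8 CPM in controls and 38.7, 31.1, 41.6 and 35.8 CPM in furan mice. Both fixed sets separated the treatments with a wide gap.

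The fall of Srsf5 passed the test in both fixed sets and missed it in frozen tissue. It measured -0.57 ± 0.06 (log2 fold change ± SE, n = 4 against 4; fold 0.672, adjusted p = 9.22e-06, edgeR) in FFPE 18 h and -0.82 ± 0.17 (fold 0.566, adjusted p = 0.00632, edgeR) in FFPE 3 weeks tissue. In frozen tissue the log2 difference was -0.47 ± 0.12 (fold 0.72, adjusted p = 0.0715, edgeR). Without control animal 3 it was -0.56 (adjusted p = 0.00117, edgeR), and the DESeq2 test called it as well (adjusted p = 0.0122). Srsf5 was the only SR or CLK gene called in FFPE 18 h tissue (1 of 16, where 15.5% of all genes were called, 7.72% as lower). The same held in FFPE 3 weeks tissue (1 of 16, where 2.58% of all genes were called, 1.51% as lower and 1.07% as higher). Libraries that lay apart as lower made up 9.84% of all genes in FFPE 18 h and 4.71% in FFPE 3 weeks tissue. Of its 50-base windows 28.62% are also found in another gene, Gm12966, so part of its count is uncertain.

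**Figure D2:**
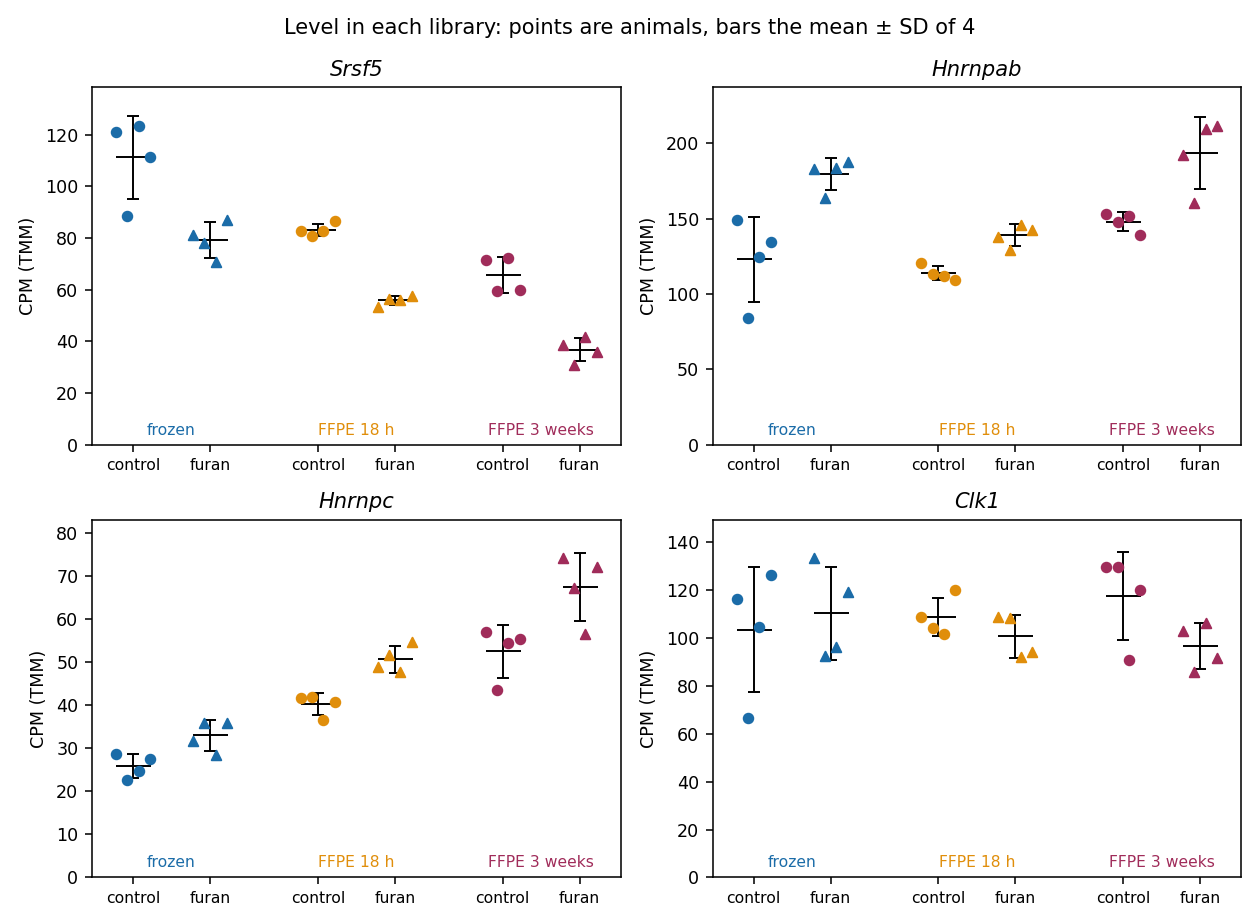
CPM (TMM) of Srsf5, Hnrnpab, Hnrnpc and Clk1 in each of the 24 libraries, by preservation and treatment; circles are control and triangles furan animals, and bars give the mean ± SD of 4. The furan points of Srsf5 lie below, and those of Hnrnpab above, all control points of the same preservation, whereas Clk1 overlaps in all 3.

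Hnrnpab and Hnrnpc went the other way. Hnrnpab stood at 149, 83.9, 124 and 135 CPM in frozen controls and at 183, 164, 184 and 188 CPM in frozen furan livers. In FFPE 18 h tissue it was at 121, 113, 112 and 109 CPM in controls and at 138, 129, 146 and 143 CPM in furan mice, and in FFPE 3 weeks tissue at 153, 148, 151 and 139 against 192, 161, 210 and 212 CPM. No furan library overlapped a control in any of the 3, a pattern that 10.3% of all genes showed as higher in FFPE 18 h and 3.99% in FFPE 3 weeks tissue. The rise was called in FFPE 18 h (0.29 ± 0.06, fold 1.22, adjusted p = 0.00382, edgeR), and not in frozen (0.56 ± 0.15, adjusted p = 0.0848) or FFPE 3 weeks tissue (0.40 ± 0.12, adjusted p = 0.055). Without control animal 3 the frozen difference shrank to 0.42 and was called (adjusted p = 0.0111, edgeR). In the edgeR fit over all 24 libraries the FFPE 18 h call of Hnrnpab was lost (adjusted p = 0.348), and those in frozen and FFPE 3 weeks tissue were made (0.00422 and 0.034). Exons of Hnrnpab overlap those of Phykpl, a metabolic enzyme gene on the opposite strand, over 155 bases. Phykpl itself differed by 0.14 ± 0.14, -0.03 ± 0.10 and -0.13 ± 0.29 in frozen, FFPE 18 h and FFPE 3 weeks tissue, and was called in none.

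Hnrnpc, which binds uridine tracts and keeps cryptic exons out, held 28.7, 22.7, 24.8 and 27.5 CPM in frozen controls and 31.7, 36, 28.5 and 35.9 CPM in frozen furan livers. The FFPE 18 h values were 41.7, 42, 36.5 and 40.9 CPM in controls and 48.9, 51.6, 47.7 and 54.7 CPM in furan mice. In FFPE 3 weeks tissue controls held 57, 43.5, 54.5 and 55.3 and furan mice 74.2, 67.2, 56.4 and 72.2 CPM. The treatments were separate in FFPE 18 h tissue and touched in the other 2, where 1 furan mouse, animal 43, lay within the controls. The log2 difference was 0.33 ± 0.08 in FFPE 18 h (fold 1.26, adjusted p = 0.00615, edgeR), 0.36 ± 0.12 in frozen (adjusted p = 0.144) and 0.37 ± 0.16 in FFPE 3 weeks tissue (adjusted p = 0.315). The FFPE 18 h call of Hnrnpc was lost in the edgeR fit over all 24 libraries (adjusted p = 0.251), and 22.96% of its 50-base windows are shared with 2 other genes. The third call in FFPE 18 h tissue was Hnrnpul2, a SAF-A-like nuclear protein. It held 109, 108, 108 and 112 CPM in controls and 123, 128, 119 and 125 CPM in furan mice (0.17 ± 0.06, adjusted p = 0.0498, edgeR). Leaving out any 1 of the 8 animals ended that call, with adjusted p between 0.0692 and 0.153. Its FFPE 3 weeks difference was -0.02 ± 0.12.

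In frozen liver edgeR called 0 of 16 SR and CLK genes and 0 of 20 hnRNPs, against 2.78% of all 14122 genes tested (1.57% higher, 1.2% lower). At an unadjusted p under 0.05 there were 4 and 5 members, and the DESeq2 test called 2 SR and CLK genes (Srsf5 lower, Tra2a higher) and 1 hnRNP (Hnrnpab higher). Without control animal 3, edgeR called Srsf5, Hnrnpab and Hnrnpll, and 1148 genes in all in place of 392. Groups that did not overlap were seen for 4 SR and CLK genes, 2 higher and 2 lower, and for 2 hnRNPs, both higher. Over all genes tested 6.7% lay apart as higher and 6.85% as lower. Hnrnpll, a splicing repressor best known from T cells, was 1 of these 2, with 42.4, 22.1, 37.5 and 42.6 CPM in controls and 52.7, 48.9, 52.5 and 49.5 CPM in furan livers (0.51 ± 0.18, adjusted p = 0.16; 0.34 without control animal 3).

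As families, the members had a median furan difference near 0 in both fixed tissues. In frozen tissue 16 of 20 hnRNPs had a positive log2 difference with a median of 0.18, and the SR and CLK genes had 11 of 16 with a median of 0.09, beside -0.01 over all genes. Without control animal 3 the medians were 0.04 for hnRNPs and 0.06 for SR and CLK genes. In FFPE 18 h tissue 3 of 20 hnRNPs were called, all higher, and the median was 0.00. Of all genes 15.5% were called there, 7.82% as higher. With any 1 animal left out, the count of hnRNPs called was 2. In FFPE 3 weeks tissue 0 of 20 hnRNPs were called by edgeR, 2 had an unadjusted p under 0.05, the DESeq2 test called 1 (Hnrnpab), and the median was 0.01. Hnrnpr had the next smallest p after Hnrnpab and Hnrnpc in that tissue, with 78.1, 72.6, 73.1 and 73.6 CPM in controls and 58.3, 56.6, 66.3 and 86.8 CPM in furan mice, which overlapped through animal 44 (-0.13 ± 0.16, adjusted p = 0.858, edgeR). The summed CPM of the 20 hnRNPs ran from 1018 to 1422 in frozen controls and from 1399 to 1544 in frozen furan livers; the lowest value, 1018, was that of control animal 3. The other hnRNPs with an unadjusted p under 0.05 in frozen tissue were Hnrnpm and Hnrnph1, at 0.28 ± 0.12 and 0.26 ± 0.11 (adjusted p = 0.224 and 0.229, edgeR).

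**Figure D3:**
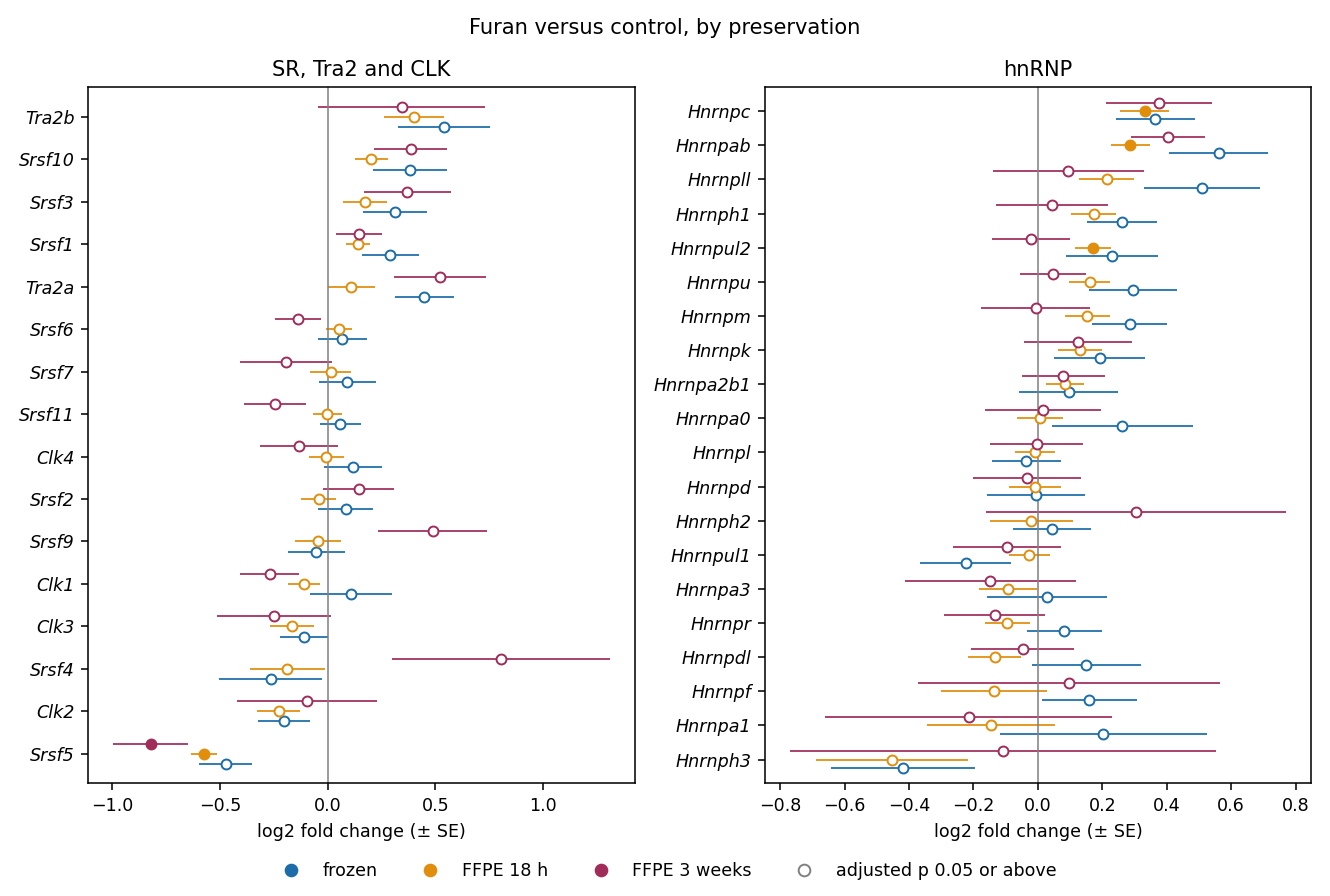
Log2 fold change of furan against control (x axis, bars ± SE) for 16 SR and CLK genes (left) and 20 hnRNPs (right) in frozen, FFPE 18 h and FFPE 3 weeks tissue; filled points have an adjusted p below 0.05 in edgeR. Srsf5 lies to the left of 0 in all 3 and Hnrnpab and Hnrnpc to the right, and all 4 CLK kinases carry open points.

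The Tra2 proteins, SR-like activators that bind GAA-rich exons, had positive furan differences that did not pass the test within any 1 tissue. Tra2b held 10.3, 5.8, 11.6 and 13.1 CPM in frozen controls and 15.2, 14.3, 13.7 and 15.7 CPM in frozen furan livers, a log2 difference of 0.54 ± 0.21 (adjusted p = 0.209) that was 0.35 without control animal 3. Its differences were 0.40 ± 0.14 (adjusted p = 0.0617) in FFPE 18 h and 0.34 ± 0.39 in FFPE 3 weeks tissue. Tra2b passed in FFPE 18 h tissue when control animal 2 was left out (0.49, adjusted p = 0.0366) and by the DESeq2 test (adjusted p = 0.048). Tra2a held 22.8, 18.8, 23.9 and 25.2 CPM in frozen controls and 36.7, 29.5, 27.5 and 28.9 CPM in furan livers. All 4 furan values lay above the controls (0.45 ± 0.14, adjusted p = 0.11), but in FFPE 18 h tissue the groups overlapped (0.11 ± 0.11, adjusted p = 0.563). After 3 weeks of formalin Tra2a differed by 0.52 ± 0.21 (adjusted p = 0.252), and the edgeR fit over all 24 libraries called it there (0.51, adjusted p = 0.0466). Srsf10, an atypical SR protein that represses splicing when dephosphorylated, held 30.9, 30.9, 28.9 and 33.4 CPM in FFPE 18 h controls and 35.7, 34.5, 35 and 37.7 CPM in furan mice, which did not overlap. It differed by 0.38 ± 0.17, 0.20 ± 0.08 and 0.39 ± 0.17 in the 3 tissues, with adjusted p of 0.264, 0.091 and 0.32. Without control animal 3, which held 16.9 CPM beside 25.7 to 30.2 CPM in the other frozen controls, the frozen difference of Srsf10 was 0.24.

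None of the 4 CLK kinases was called for furan in any tissue, and none was in any of the 13 alternatives run for each. Clk1, the kinase whose own transcript is kept partly unspliced in the nucleus, held 116, 66.4, 104 and 126 CPM in frozen controls and 133, 92.2, 96.2 and 119 CPM in furan livers, which overlapped. Its log2 difference was 0.11 ± 0.19 in frozen, -0.11 ± 0.07 in FFPE 18 h and -0.27 ± 0.14 in FFPE 3 weeks tissue (adjusted p = 0.797, 0.36 and 0.422). The frozen value turned to -0.05 without control animal 3. Clk2 held 15, 16.3, 16.6 and 15.5 CPM in frozen controls and 13, 14.7, 13.9 and 13.1 CPM in furan livers, a small step without overlap (-0.20 ± 0.12, adjusted p = 0.401). In FFPE 18 h tissue Clk2 differed by -0.23 ± 0.10 (adjusted p = 0.142), and in FFPE 3 weeks tissue by -0.10 ± 0.33, where leaving out animal 4 or 44 turned its sign. Clk3 differed by -0.11 ± 0.11, -0.16 ± 0.10 and -0.25 ± 0.27, and Clk4 by 0.12 ± 0.14, -0.01 ± 0.08 and -0.13 ± 0.18. Without control animal 3 the frozen differences of Clk3 and Clk4 were -0.061 and 0.047.

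The furan differences of the members were not distinguishable between tissues at this number of animals. For furan by preservation edgeR called 0 of 36 members and 0% of all genes in each of the 3 contrasts. At an unadjusted p under 0.05 there were 0, 0 and 1 members for FFPE 18 h against frozen, FFPE 3 weeks against frozen and FFPE 3 weeks against FFPE 18 h, and the DESeq2 test called 0, 0 and 0. For Srsf5 the furan effect was -0.08 ± 0.14 apart between FFPE 18 h and frozen tissue and -0.35 ± 0.19 apart between FFPE 3 weeks and frozen tissue (unadjusted p = 0.548 and 0.0771, edgeR). For Hnrnpab these differences were -0.26 ± 0.17 and -0.16 ± 0.19, and for Hnrnpc -0.02 ± 0.14 and 0.00 ± 0.21. The same 8 animals are in each tissue, so the 3 comparisons are not independent of each other.

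Genes that act on SR proteins were described from a list of 12 kinases, phosphatase subunits and import factors. With furan 5 of 12 were called in FFPE 18 h tissue, 4 higher and 1 lower, against 15.5% of all genes, and 0 of 12 in frozen (5 at an unadjusted p under 0.05) and 0 of 11 in FFPE 3 weeks tissue (3 at an unadjusted p under 0.05). Srpk1, the cytoplasmic SR protein kinase, rose by 0.55 ± 0.09 in FFPE 18 h tissue (adjusted p = 0.000463, edgeR) and differed by 0.30 ± 0.12 in frozen and 0.01 ± 0.27 in FFPE 3 weeks tissue. Dyrk1b, a kinase of the family next to the CLKs, fell by 0.72 ± 0.12 in FFPE 18 h tissue (adjusted p = 0.000509, edgeR) and differed by -0.68 ± 0.24 and -0.63 ± 0.39 in the other 2. Ppp1r8, a nuclear inhibitor subunit of protein phosphatase 1, rose by 0.50 ± 0.13 in FFPE 18 h tissue (adjusted p = 0.012, edgeR), with 0.39 ± 0.13 and 0.86 ± 0.40 elsewhere.

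Of 46 core spliceosome genes, 1 was called in frozen, 8 in FFPE 18 h (7 higher, 1 lower) and 0 in FFPE 3 weeks tissue (4 at an unadjusted p under 0.05). Sf3b3, a U2 snRNP subunit, rose by 0.51 ± 0.10 in frozen (adjusted p = 0.0266, edgeR) and by 0.61 ± 0.06 in FFPE 18 h tissue (adjusted p = 4.35e-06, edgeR). Of 15 genes of nonsense-mediated decay and the exon junction, 3 rose in FFPE 18 h tissue, among them Upf2 and Smg5, by 0.40 ± 0.07 and 0.44 ± 0.07. The frozen differences of Upf2 and Smg5, 0.42 ± 0.10 and 0.46 ± 0.16, were not called. Of 27 other splicing regulators in FFPE 18 h tissue, 2 rose and 2 fell, Mbnl2 rising by 0.36 ± 0.07 and Celf2 falling by 0.50 ± 0.10. Among 18 SR-related proteins 1 was called in each fixed tissue, lower both times, and of 9 hnRNP proteins with other symbols, such as Ptbp1 and Syncrip, 0 were called in any tissue (0, 2 and 3 at an unadjusted p under 0.05 in frozen, FFPE 18 h and FFPE 3 weeks tissue). Over all genes 2.78%, 15.5% and 2.58% were called in these tissues, in either direction. By direction, 7.82% of all genes were called higher in FFPE 18 h tissue and 1.51% lower in FFPE 3 weeks tissue. In FFPE 18 h tissue the core spliceosome and decay counts lay near the share for either direction, but above the share called higher. There the other regulator count lay near, and the SR-related count below, the share for either direction. The SR-related call in FFPE 3 weeks tissue is 1 gene. These lists were not tested as sets.

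Markers of other cells and of dividing cells moved with furan in the same libraries. The summed CPM of 10 proliferation genes was 28.5 to 38 in frozen controls and 47.3 to 83.9 in frozen furan livers, with 3 of 10 called higher (1.57% of all genes were), and 25.8 to 37.9 against 38.5 to 74.6 in FFPE 18 h tissue, with 4 of 9 called higher (7.82% of all genes). The FFPE 3 weeks sums were 19.7 to 34.9 and 34.5 to 53.8, and 0 of 10 were called by edgeR (0 at an unadjusted p under 0.05). The 6 sinusoidal endothelial markers summed to 541 to 614 CPM in frozen controls and 419 to 457 in furan livers, with 1 called lower (1.2% of all genes), and to 540 to 548 against 427 to 458 in FFPE 18 h tissue, with 4 called lower (7.72%). The endothelial sums overlapped in FFPE 3 weeks tissue, at 423 to 480 in controls and 361 to 437 in furan mice, and 0 of 6 were called (2 at an unadjusted p under 0.05). None of those 16 genes was at 0 over a whole group. Of the 6 Kupffer, 6 stellate and 5 bile duct markers 0 were called in frozen and FFPE 18 h tissue (1 bile duct marker had an unadjusted p under 0.05, in FFPE 18 h). All 6 Kupffer markers had negative differences in both, with medians of -0.31 and -0.30. The Kupffer sums overlapped in frozen tissue, at 336 to 723 CPM in controls (median 385) and 346 to 384 in furan livers (median 369). They overlapped in FFPE 18 h tissue too, at 204 to 392 CPM (median 217) and 184 to 222 CPM (median 216). In both, the group medians of the sums lay close together. In FFPE 3 weeks tissue 0 of these markers were called, with 2 Kupffer and 1 stellate marker at an unadjusted p under 0.05. Of the 6 hepatocyte markers 0 were called in frozen, 1 in FFPE 18 h (lower, beside 7.72% of all genes) and 0 in FFPE 3 weeks tissue. Their medians were -0.05, 0.01 and -0.09. Lymphocyte, neutrophil and erythroid markers were too low for a reading: of 6, 2 and 3 in the table, 5, 2 and 1 passed the filter in frozen, 5, 0 and 1 in FFPE 18 h and 3, 0 and 1 in FFPE 3 weeks tissue, and none of those tested was called by edgeR or had an unadjusted p under 0.05. In whole liver, fewer cells of a type and less RNA per cell cannot be told apart, and the part of these shifts in the changes of Srsf5, Hnrnpab and Hnrnpc was not tested.

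More members were called between preservations, with 8 libraries on each side, than between treatments, with 4. Both sides are pieces of the same 8 livers, and the tests given here did not pair them. Counts from a fit with a block by animal are in the last section. Between FFPE 18 h and frozen pieces, taken over both treatments (8 against 8 libraries), calls were made for 7 of 16 SR and CLK genes (5 higher, 2 lower) and 13 of 20 hnRNPs (7 higher, 6 lower), against 53.9% of all genes (26.6% higher, 27.3% lower). With DESeq2 size factors in edgeR the SR and CLK split was 5 higher and 1 lower. After 3 weeks in formalin 10 of 16 SR and CLK genes (8 higher, 2 lower) and 15 of 20 hnRNPs (9 higher, 6 lower) differed from frozen, where 48.8% of all genes did. With DESeq2 size factors the hnRNP split was 10 higher and 3 lower. Between the 2 fixed sets 9 of 16 (7 higher, 2 lower after 3 weeks) and 12 of 20 (10 higher, 2 lower) were called, against 32.4% of all genes. The share of SR and CLK genes called at 18 hours thus did not exceed that of all genes. Libraries lay apart as higher for 1 SR and CLK gene and 6 hnRNPs and as lower for 2 hnRNPs at 18 hours, against 8.37% and 9.03% of all genes. After 3 weeks this held for 4 SR and CLK genes and 7 hnRNPs as higher and 1 hnRNP as lower, against 7.52% and 11.7% of all genes. Between the fixed sets 3 SR and CLK genes and 3 hnRNPs lay apart as higher and 1 hnRNP as lower, against 3.68% and 5.65%. Median log2 differences for 3 weeks against frozen were 0.39 for SR and CLK genes and 0.17 for hnRNPs, beside -0.02 over all genes.

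**Figure D4:**
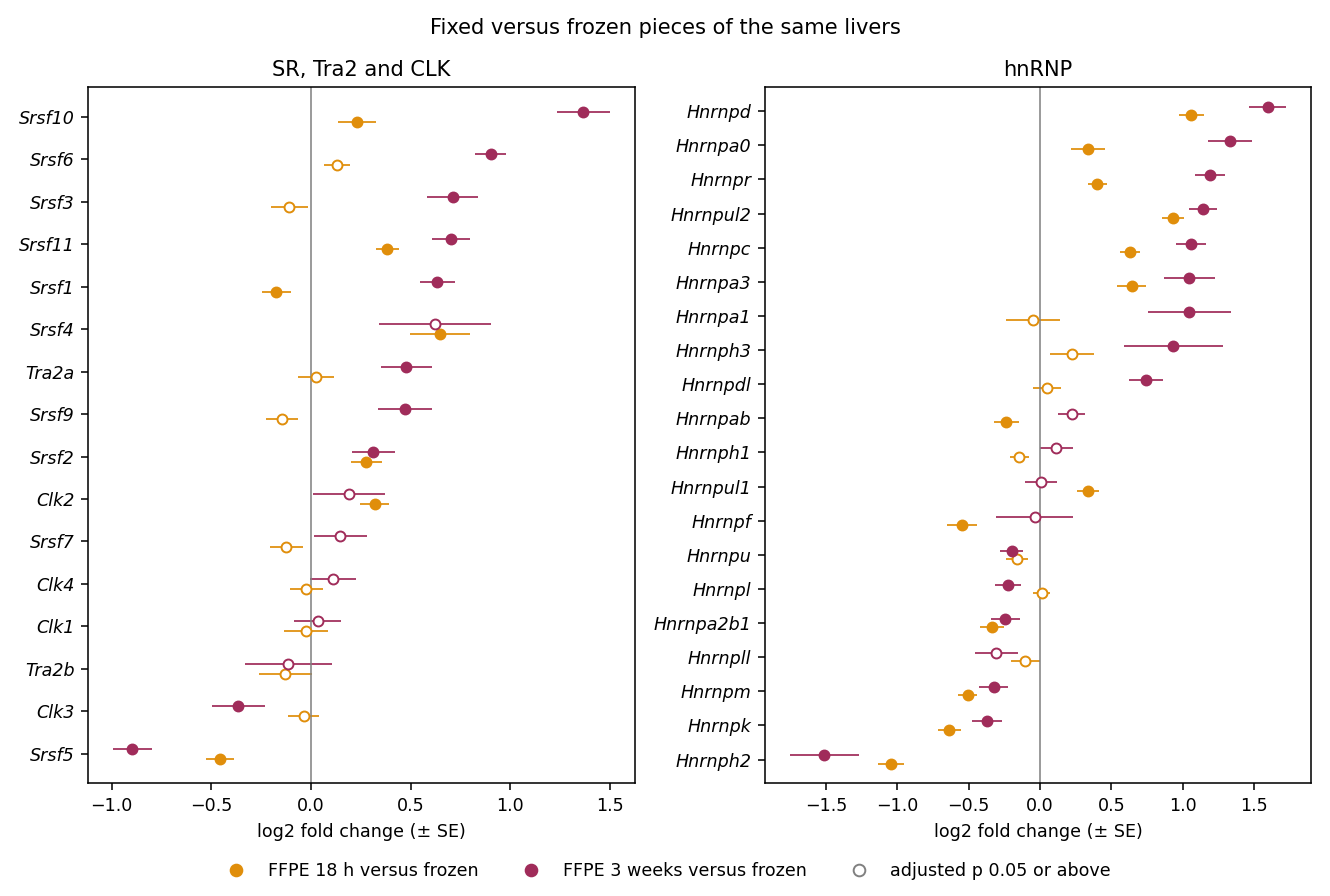
Log2 fold change of FFPE 18 h and FFPE 3 weeks against frozen pieces (x axis, bars ± SE; 8 against 8 libraries) for 16 SR and CLK genes (left) and 20 hnRNPs (right); filled points have an adjusted p below 0.05 in edgeR. Hnrnpd and Srsf10 head the rises at 1.60 and 1.37 after 3 weeks, and Hnrnph2 and Srsf5 the falls at -1.51 and -0.90.

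Srsf10 and Srsf6 were the SR genes with the largest rises after 3 weeks. Srsf10 had a lowest, median and highest value of 16.9, 28.9 and 36.1 CPM in frozen, 28.9, 33.9 and 37.7 in FFPE 18 h and 49.5, 71.9 and 102 in FFPE 3 weeks libraries. Every 3-week library lay above every frozen one and above every 18-hour one. The log2 difference from frozen was 0.23 ± 0.10 at 18 hours (adjusted p = 0.0487, edgeR, a call lost without any 1 animal other than animal 2) and 1.37 ± 0.13 after 3 weeks (adjusted p = 4.21e-09, edgeR). Srsf6, an SR protein that binds purine-rich enhancers, went from 112, 133 and 143 CPM in frozen to 205, 233 and 269 CPM in FFPE 3 weeks libraries, again without overlap (0.90 ± 0.08, adjusted p = 7.33e-10, edgeR). Its 18-hour difference was 0.13 ± 0.07 (adjusted p = 0.101). Srsf3, the smallest SR protein, rose by 0.71 ± 0.13 after 3 weeks. Of their 50-base windows, Srsf10 shares 20.73% with 3 other genes and Srsf3 29.9% with 5, so part of both counts is uncertain. Srsf1, the founding SR protein, was 0.18 ± 0.07 lower than frozen at 18 hours in log2 terms and rose by 0.63 ± 0.09 after 3 weeks. The 18-hour call of Srsf1 (-0.18, adjusted p = 0.0469) was lost with each animal left out except animal 3, with adjusted p up to 0.144.

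At 18 hours the SR and CLK genes with the largest rises were Srsf4 (0.65 ± 0.15), Srsf11 (0.38 ± 0.06) and Clk2 (0.32 ± 0.07). Exons of Srsf4 overlap Gm12992, a transcript on the opposite strand, over 1442 bases. Gm12992 rose by 1.23 ± 0.14 at 18 hours and 1.56 ± 0.40 after 3 weeks, and the strand setting of the counting is not given in the sources used here, so the reads of the 2 cannot be told apart. Srsf5 fell with fixation too, by 0.46 ± 0.07 at 18 hours and 0.90 ± 0.10 after 3 weeks. That step is visible in its control values above, which ran from 88.6 to 123 CPM frozen, 80.9 to 86.6 after 18 hours and 59.5 to 72.2 after 3 weeks. Clk3 was -0.36 ± 0.13 from frozen after 3 weeks (adjusted p = 0.0256, edgeR), a call lost without any 1 of animals 3, 4, 41, 42 and 43. Exons of Clk3 overlap those of Edc3, a protein-coding gene on the opposite strand, over 413 bases. Edc3 rose by 1.27 ± 0.14 after 3 weeks, and with the strand setting not given, the reads of the 2 cannot be told apart. Clk1 (0.03 ± 0.12) and Clk4 (0.11 ± 0.11) were not called after 3 weeks.

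Among hnRNPs the largest rises were those of Hnrnpd, Hnrnpa0 and Hnrnpr. Hnrnpd, the AU-rich element binding protein AUF1, had a lowest, median and highest value of 24.7, 30.3 and 34.7 CPM in frozen, 54.6, 63.1 and 68.8 in FFPE 18 h and 62.8, 87.4 and 109 in FFPE 3 weeks libraries. All fixed libraries lay above all frozen ones. It rose by 1.06 ± 0.09 at 18 hours and 1.60 ± 0.13 after 3 weeks (adjusted p = 9.43e-09 and 1.53e-10, edgeR). Hnrnpa0, a stress-responsive AU-rich binder, went from 14.7, 32.5 and 35.1 CPM in frozen to 36.2, 37.8 and 40.3 in FFPE 18 h and 47, 77 and 96.7 in FFPE 3 weeks libraries (1.33 ± 0.16 after 3 weeks). Hnrnpr, a neighbour of Syncrip by sequence, went from 26.2, 32.4 and 34.2 to 56.6, 72.9 and 86.8 CPM after 3 weeks (1.19 ± 0.11). Exons of Hnrnpd overlap Gm17092, an antisense transcript, over 385 bases. Of their 50-base windows, Hnrnpd shares 20.79% with Gm17092 and Hnrnpr 24.1% with Gm6159, so part of both counts is uncertain. At 18 hours Hnrnpul2 rose by 0.93 ± 0.08 and Hnrnpa3 by 0.64 ± 0.10, the latter with the uncertain counting given above.

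The hnRNP with the largest fall was Hnrnph2, an X-linked binder of G tracts. It held 22.6, 27.1 and 29.8 CPM (lowest, median, highest) in frozen, 10.4, 13.2 and 15.1 in FFPE 18 h and 4.02, 8.45 and 16.9 in FFPE 3 weeks libraries. Every fixed library lay below every frozen one, and the log2 difference was -1.04 ± 0.09 at 18 hours and -1.51 ± 0.24 after 3 weeks (adjusted p = 1.21e-08 and 1.07e-05, edgeR). Another gene, Gm8775, shares 30.89% of its 50-base windows. Hnrnpk, a binder of C-rich RNA and DNA, fell by 0.64 ± 0.08 at 18 hours and 0.37 ± 0.11 after 3 weeks, Hnrnpm by 0.51 ± 0.07 and 0.32 ± 0.10, and Hnrnpf by 0.55 ± 0.11 at 18 hours. The counts of Hnrnpf and Hnrnpk are less certain still, as 62.11% and 40.58% of their windows are shared with 10 and 3 other genes. Between the fixed sets Hnrnpa1 rose by 1.08 ± 0.26 and Hnrnpul1 fell by 0.34 ± 0.09 after the longer fixation. Hnrnpab, which rose with furan, was -0.24 ± 0.09 from frozen at 18 hours and 0.22 ± 0.10 after 3 weeks, the first called and the second not (adjusted p = 0.0256 and 0.0576, edgeR). The 18-hour call of Hnrnpab was lost without any 1 animal other than animal 3, with adjusted p up to 0.082.

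**Figure D5:**
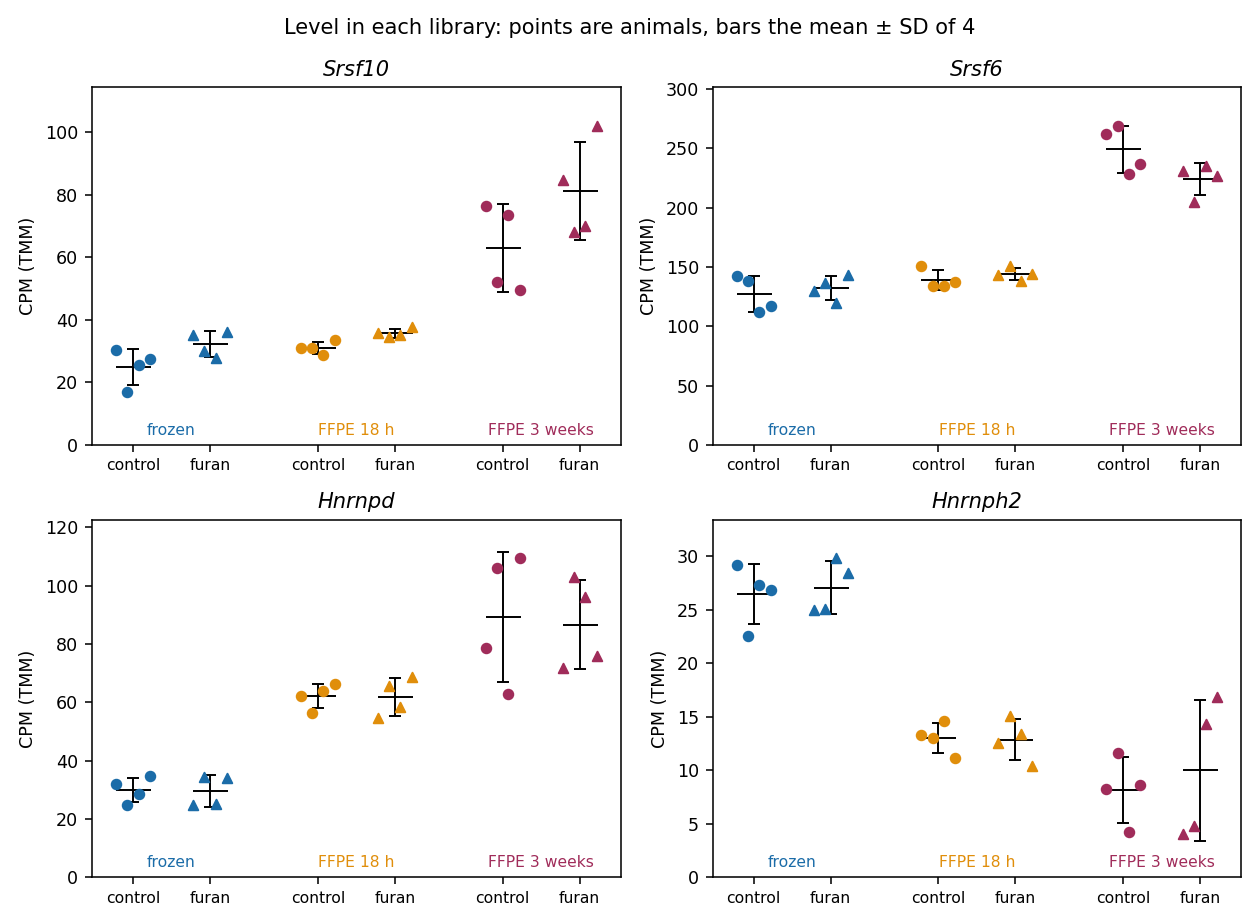
CPM (TMM) of Srsf10, Srsf6, Hnrnpd and Hnrnph2 in each of the 24 libraries, by preservation and treatment; circles are control and triangles furan animals, and bars give the mean ± SD of 4. Hnrnpd stands at 24.7 to 34.7 CPM in frozen and 62.8 to 109 CPM in FFPE 3 weeks pieces.

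As sums, the SR and CLK genes took 723 to 950 CPM in frozen, 819 to 896 in FFPE 18 h and 1015 to 1199 in FFPE 3 weeks libraries, and the 3-week range lay above both others. The hnRNPs took 1018 to 1544, 1260 to 1420 and 1425 to 1612 CPM, with overlap between frozen and 3-week libraries. Core spliceosome genes were lower in the same contrast: 25 of 46 were called lower and 2 higher after 3 weeks against frozen, with a median of -0.66, where 25.8% of all genes were called lower. Other splicing regulators were mostly higher, with 18 of 26 called higher and 4 lower and a median of 0.72, where 23% of all genes were called higher. Of the 9 hnRNP proteins with other symbols 7 were called higher and 1 lower, with a median of 0.81.

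Other signals moved with fixation beside these members. Summed CPM of the 6 hepatocyte markers was 152376 to 179713 in frozen, 92879 to 109742 in FFPE 18 h and 51840 to 66717 in FFPE 3 weeks libraries, and all 6 were called lower in both fixed sets, with medians of -0.77 and -1.33. The 4 RNA signals (Rn45s, Malat1, Neat1 and Meg3) were all called higher, with medians of 1.45 and 2.09. The part of these shifts, of the RNA integrity and of the depth in the members' differences was not tested. Median GC content of the representative transcripts was 44.14% for SR and CLK genes and 45.06% for hnRNPs, beside 49.48% for all genes with a transcript. Across the 16 SR and CLK genes the furan log2 difference had a Spearman correlation with GC content of -0.68 in frozen, -0.54 in FFPE 18 h and 0.13 in FFPE 3 weeks tissue, and over all genes of -0.33, -0.19 and -0.05. Across the 20 hnRNPs it was -0.01, 0.02 and -0.19. The same was taken for 18 hours against frozen, 3 weeks against frozen and 3 weeks against 18 hours, in that order. For GC content the values were 0.12, -0.13 and -0.34 over all genes. They were 0.25, -0.04 and -0.37 for SR and CLK genes and 0.42, 0.41 and 0.19 for hnRNPs. For transcript length they were 0.32, 0.28 and 0.11 over all genes. SR and CLK genes had 0.26, 0.52 and 0.32 and hnRNPs -0.13, -0.12 and 0. These genes share their libraries and the values are a description.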

How the data were processed

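RNA of 24 liver pieces (8 mice, 3 pieces each) was sequenced as ribosome-depleted libraries. The authors deposited raw counts per gene symbol, made with CASAVA 1.8.2, STAR 2.3.0, featureCounts 1.4.4 and mm9, per the submitters' processing notes; strand, gene models and treatment of multiply mapped reads are not given in the sources used here. Columns of frozen pieces carry a heading that also contains FFPE, and were matched to their samples by the labels' titles. Genes were filtered, scaled with TMM and tested with edgeR 4.0.16 in R 4.3.3 (quasi-likelihood test, Benjamini-Hochberg adjustment over all genes tested, prior count 2); each furan test used the 8 libraries of 1 preservation, and each preservation test the 16 libraries of 2. Depth was 5560002 to 49326373 counts, lowest after 3 weeks of formalin. DESeq2 1.42.0, other scalings, no filter, thinning to 5560002 counts, a fit over all 24 libraries, leaving out each animal and a block by animal were alternatives. Pieces of 1 animal are paired by the labels; deviations of same-animal pieces correlated at 0.03 to 0.25 (FFPE 18 h and frozen), 0.02 to 0.09 (FFPE 3 weeks and frozen) and -0.01 to 0.08 (both fixed). Members and gene lists were chosen with earlier results of these data known. Genes given in full are, per furan comparison and family, the called members, filled to 3 by smallest p. The CLK and Tra2 genes are always given. Per preservation comparison and family, the rule takes the 3 largest rises and falls among those called. Between the fixed sets, only Hnrnpa1 and Hnrnpul1 of the members it takes are given with values. From other lists, up to 4 by smallest p in frozen tissue could be named, and for some lists none is. Other members that are named were chosen after their values were seen. Lengths come from GENCODE and promoters from RefSeq, both GRCm38, by symbol. The tests were checked on simulated data.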

Additional observations from a re-analysis of the deposited data

Results flagged for a closer look

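Among 168 groups of 4 libraries checked (28 members), 2 held a library far from the other 3; chance gives about 1 in 20 groups. Both concern Hnrnpa0, an AU-rich element binder, in frozen tissue. In the controls animal 3 was lowest, at 14.7 CPM beside 30.8 to 34 CPM, a gap that takes a share of 0.836 of the whole range, just past the 95% limit of Dixon's test. In the furan mice animal 43 was lowest, at 26.8 CPM beside 34.4 to 35.1 CPM, with a share of 0.924.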

How the results depend on the processing

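Of 204 counts of members called that were recomputed, 189 stayed within 1.5 times. Several of these counts are small, and those for furan by preservation were 0 with each animal left out. That share alone therefore says little about stability. Of 162 recomputed family medians 115 were rated the same and 47 as moved. Leaving out 1 animal, the frozen furan median ran from 0.05 to 0.14 for SR and CLK genes and from 0.04 to 0.23 for hnRNPs. For 3 weeks against frozen it ran from 0.31 to 0.39 and from 0.11 to 0.20. Among the values of named genes 41 were rated weaker and 15 stronger. For furan in frozen tissue the DESeq2 test called 2 SR and CLK genes and 1 hnRNP, the fit over all 24 libraries 1 and 1, and leaving out 1 animal 0 to 1 and 0 to 2, with control animal 3 giving the highest. In FFPE 18 h tissue the DESeq2 test called 2 SR and CLK genes, the fit over all 24 libraries 0 hnRNPs, and leaving out 1 animal 1 to 2 and 2 to 2. In FFPE 3 weeks tissue the fit over all 24 libraries called 2 SR and CLK genes and 1 hnRNP; no filter and the DESeq2 test each called 1 hnRNP, and leaving out 1 animal gave 1 to 1 and 0 to 1. For FFPE 18 h against frozen the fit over all 24 libraries called 4 SR and CLK genes, and leaving out 1 animal 5 to 8. With the replicate block by animal, 8, 10 and 9 SR and CLK genes and 15, 15 and 13 hnRNPs were called in the 3 preservation contrasts and 0 members in the 3 furan by preservation contrasts, and no named call changed. Of 864 values of named genes 5 turned sign: Clk1 in frozen without animal 3 (-0.049, range -0.049 to 0.22 over the animals left out), Clk4 in FFPE 18 h without animals 6 (0.060) or 43 (0.01; range -0.071 to 0.060), and Clk2 in FFPE 3 weeks without animals 4 (0.13) or 44 (0.08; range -0.31 to 0.13). Over all genes, calls in frozen tissue were 1066 by DESeq2, 260 after thinning and 1148 without animal 3, beside 392, and leaving out animal 4, 6, 41, 42, 43 or 44 gave 146, 182, 174, 160, 105 and 99; the fit over all 24 libraries called 305 in FFPE 18 h (2208), 1549 in FFPE 3 weeks (335, and 218 without animal 44) and 5224 for FFPE 18 h against frozen (8006). In FFPE 3 weeks tissue, the set of lowest depth, SEs reached 0.66 (Hnrnph3). The causes were not tested.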
